A study of Mus musculus with 44 samples.

Results

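Primary cultured cortical neurons of mice that had received an interfering peptide at 1 µM were compared with neurons that had received a control peptide at 100 µM. Both groups were also given dexamethasone (DEX), a drug that activates the glucocorticoid receptor. The comparison takes 8 of the 44 libraries of the series, 4 in each group, and the genes that the count table places on chromosomes 1 to 19 or on the mitochondrial genome (MT). That rule holds for 50262 of 54532 genes, and 17213 of them had enough counts to be tested. The study's title names FRMD5 as a hub that alters glucocorticoid receptor functions, and its other neuron groups received the control peptide at 100 µM without DEX, or the interfering peptide at 3, 10, 30 or 100 µM with DEX. Peptide and DEX were applied for 4 hours. The groups compared here differ in the peptide and in its concentration at once, so peptide identity and peptide dose cannot be told apart. The labels state neither the peptide sequences nor the DEX concentration, and they do not say how old the mice were, of which strain, or if each library had its own culture. The spread that the p-values measure could thus be a technical one.

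FRMD5 belongs to the FERM-domain proteins, which link membranes to the cytoskeleton. The glucocorticoid receptor is a hormone-activated transcription factor that raises genes such as Fkbp5, Per1 and Sgk1. The hypoxia and glycolysis genes, described first, belong to another program, the one that cells switch on when oxygen is short. In that program, prolyl hydroxylases (Egln1 and Egln3 among them) stop marking hypoxia-inducible factors for destruction. The stabilised factors then raise glucose transporters, the enzymes of glycolysis, and proteins that hold pyruvate back from the mitochondrion. Many of the same genes also serve ordinary glucose use, which is high in neurons and in dividing progenitors.

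Total counts ran from 13685236 to 14493619 in the 8 libraries, and 3 counts correspond to 0.204 to 0.217 CPM (counts per 1e+06 counts after scaling between libraries). Neuronal genes were abundant in every library, with Tubb3, a neuronal tubulin, at 12359 to 14962 counts and the cortical transcription factor Neurod6 at 6099 to 7519. The cultures also held Gad2 of inhibitory neurons (2067 to 2749 counts) and Mki67 of dividing cells (4600 to 5752). Of the astrocyte genes, Gfap and Aqp4 gave 6 to 64 counts, Aldh1l1 357 to 496, and Slc1a3, also of radial glia, 1761 to 2322. The microglial gene Cx3cr1 gave 56 to 78 and the choroid plexus gene Ttr 0 to 2. Libraries 1 and 3 of the 1 µM group resembled each other, as did libraries 2 and 4, and the control libraries showed the same division. Over the 5000 most abundant genes, deviations from the group mean correlated at 0.21 and 0.019 for these pairs at 1 µM, against -0.48 to -0.68 for the other pairs of that group. In the control group the values were -0.16 and 0.039, against -0.31 to -0.60. The clearest sign was Tcf7l2, a transcription factor of the thalamus, with 1480, 207, 1495 and 213 counts in 1 µM libraries 1 to 4 and 155, 190, 177 and 234 in the control libraries. In the control group, Otp, a hypothalamic transcription factor, was at 0.35, 10.6, 0.51 and 8.79 CPM in libraries 1 to 4. If each such pair of libraries shares a source, a group holds fewer independent samples than libraries, so results are also given with the pairs summed or with either pair alone. A fit of either pair alone would then measure only the spread within a source.

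Of 17837 genes tested on all chromosomes, 2.29% were called changed at an adjusted p below 0.05 (edgeR quasi-likelihood test, Benjamini-Hochberg), with 1.4% higher and 0.891% lower at 1 µM. On chromosomes 1 to 19 and MT, 389 of 17213 genes were called, 239 higher and 150 lower. Changes were small: the median size among called genes was 0.33 on the log2 scale, and 38 went beyond 2-fold, 19 in each direction. The median change of all 17213 genes was -0.0048. With libraries 1 and 3 and libraries 2 and 4 summed, 89 genes were called over all chromosomes in place of 409, while libraries 1 and 3 alone gave 697 and libraries 2 and 4 alone 1767. Leaving out library 2 of the 1 µM group gave 228, library 4 of that group 249 and control library 2 271.

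**Figure D1:**
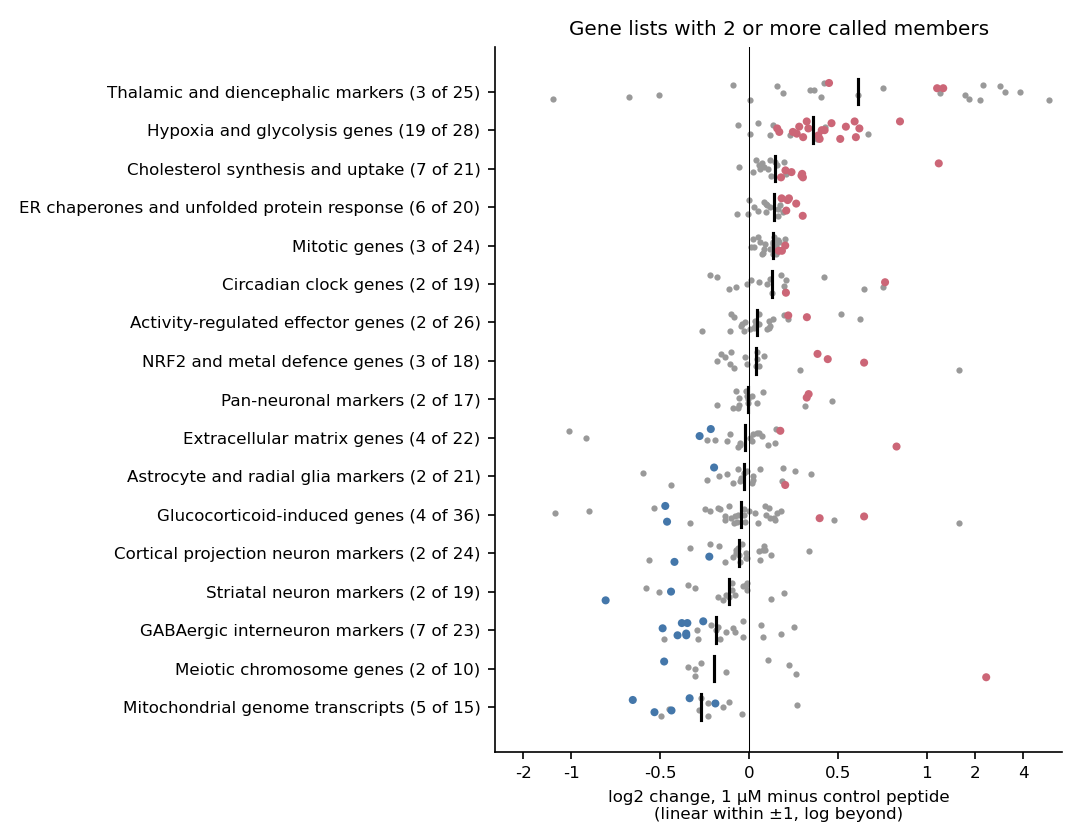
The log2 change at 1 µM is plotted for every tested member of each gene list that has 2 or more called members, with the number called of the number tested beside its name. Red points were called higher, blue points were called lower, grey points were not called, and black bars mark list medians. The hypoxia and glycolysis list has 19 called members, all to the right of 0.

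Genes of the hypoxia and glycolysis list were higher at 1 µM. Of 28 tested members, 19 rose and 0 fell, against 1.4% of all genes higher and 0.891% lower. Their median log2 change was 0.36, beside -0.0048 for all genes, and 27 of the 28 had a positive change. The count was 19 with libraries 1 and 3 alone, 20 with libraries 2 and 4 alone, 16 to 19 with any library left out, and 7 of 29 tested with the pairs summed. The list's median was 0.28 with libraries 1 and 3 alone and 0.38 with libraries 2 and 4 alone. Over all genes, 424 of 18007 and 1103 of 18070 were higher in these fits, and 49 of 20282 with the pairs summed. If the libraries of a pair share a source, the counts with a pair alone lack independent samples. The list was chosen with results of these data known, and its share of calls is a description.

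Promoters are shown for 3 members whose rise held under every alternative tried, because members of this list moved together and their best-known regulators bind a short core sequence. Each runs from 250 bases before to 50 bases after the annotated start, 5′ to 3′ on the gene's strand, from RefSeq (GRCm38.p6). Capitals mark the core of the hypoxia response element, ACGTG or GCGTG, read on either strand, so that CACGT and CACGC count too and CACGTG counts on both strands. The Ero1l promoter is at chr14:45318523-45318822 on the minus strand, the Bnip3 promoter at chr7:138909457-138909756 on the minus strand, and the P4ha1 promoter at chr10:59323046-59323345 on the plus strand.
Ero1l: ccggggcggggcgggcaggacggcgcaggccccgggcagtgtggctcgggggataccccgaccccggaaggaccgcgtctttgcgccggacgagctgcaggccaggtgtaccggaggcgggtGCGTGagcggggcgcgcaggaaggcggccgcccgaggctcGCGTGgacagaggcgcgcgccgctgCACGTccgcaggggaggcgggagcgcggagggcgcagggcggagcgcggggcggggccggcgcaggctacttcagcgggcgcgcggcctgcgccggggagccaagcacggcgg
Bnip3: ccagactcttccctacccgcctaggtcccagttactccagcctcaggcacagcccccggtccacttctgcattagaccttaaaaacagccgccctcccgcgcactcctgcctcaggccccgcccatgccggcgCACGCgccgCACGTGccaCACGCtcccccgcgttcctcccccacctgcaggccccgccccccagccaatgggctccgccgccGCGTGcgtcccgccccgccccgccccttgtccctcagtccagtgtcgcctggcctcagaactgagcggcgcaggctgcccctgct
P4ha1: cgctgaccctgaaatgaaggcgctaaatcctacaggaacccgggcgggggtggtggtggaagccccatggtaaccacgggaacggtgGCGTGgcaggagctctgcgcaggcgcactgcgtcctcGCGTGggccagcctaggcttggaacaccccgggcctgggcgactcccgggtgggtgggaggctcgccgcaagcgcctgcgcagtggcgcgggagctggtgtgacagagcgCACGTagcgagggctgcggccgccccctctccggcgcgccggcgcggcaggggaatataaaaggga

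The core was found 3 times in the Ero1l promoter, 5 times in that of Bnip3 and 3 times in that of P4ha1. Of the 28 tested members, 25 had a promoter in the table, and 18 of these 25 (72%) held a core, against 14380 of 32851 promoters in all (43.8%). It was present in 12 of 18 members that rose (66.7%) and in 6 of 7 that were not called (85.7%), and no test was made of these shares. Slc2a3, Bnip3l and Ndrg1 were not matched. A core in a window is a match of letters and not a bound site.

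Glucose uptake genes rose. Slc2a3, the main neuronal glucose transporter, was at 82.9, 82.0, 77.2 and 80.5 CPM in control libraries 1 to 4 and at 111, 124, 110.0 and 126 CPM at 1 µM (log2 change 0.54 ± 0.059, adjusted p = 7.23e-09). All 1 µM libraries were above all control libraries. Slc2a1, the transporter of glia and endothelium that also rises with low oxygen, was at 92.6 to 102 CPM with control peptide and 119 to 141 CPM at 1 µM (log2 change 0.40 ± 0.057, adjusted p = 5.98e-06). Hexokinases phosphorylate the glucose taken in. Hk2, the inducible hexokinase, had the largest change on the list, with 83.3, 71.8, 84.3 and 81.5 CPM in the control libraries and 129, 162, 129 and 158 CPM at 1 µM (log2 change 0.85 ± 0.14, adjusted p = 0.00072). Its 1 µM libraries 2 and 4 were the higher ones, and its adjusted p rose to 0.351 with the pairs summed. Hk1, the constitutive hexokinase of brain, was at 112 to 126 CPM with control peptide and 111 to 125 CPM at 1 µM (log2 change 0.00 ± 0.051, adjusted p = 0.987), and its groups overlapped.

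Genes of most later steps of glycolysis rose too, by less than Hk2 and Slc2a3. Gpi1 (phosphoglucose isomerase, log2 change 0.33 ± 0.054), Pfkfb3 (which makes the activator of phosphofructokinase, 0.42 ± 0.076), Aldoa (aldolase, 0.30 ± 0.071), Tpi1 (triosephosphate isomerase, 0.25 ± 0.051), Pgam1 (phosphoglycerate mutase, 0.28 ± 0.051), Eno1 (enolase, 0.27 ± 0.056), Eno2 (the neuronal enolase, 0.32 ± 0.051) and Pkm (pyruvate kinase, 0.16 ± 0.044) were all called, with adjusted p between 3.74e-05 and 0.0396. Ldha, which turns pyruvate into lactate, rose from a range of 288 to 323 CPM with control peptide to one of 370.5 to 406 CPM at 1 µM (log2 change 0.39 ± 0.064, adjusted p = 0.000228). The phosphofructokinases Pfkl (log2 change 0.23 ± 0.081, adjusted p = 0.147) and Pfkp (log2 change 0.05 ± 0.069, adjusted p = 0.794) did not pass the test, nor did Aldoc (log2 change -0.06 ± 0.067, adjusted p = 0.726). Gapdh, at 13.1 to 18.1 CPM with control peptide and 18.2 to 20.6 CPM at 1 µM, was not called either (adjusted p = 0.0633). It has many near-identical copies in the mouse genome, so its counts are uncertain.

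Genes that steer pyruvate and mitochondria rose too. Pdk1, the kinase that switches off pyruvate dehydrogenase, was at 63.0, 59.8, 68.5 and 63.2 CPM in the control libraries and 83.6, 89.2, 87.3 and 90.8 CPM at 1 µM (log2 change 0.46 ± 0.056, adjusted p = 7.9e-08). Bnip3, a mitochondrial outer-membrane protein that promotes mitophagy, was at 35.5, 46.2, 38.4 and 38.3 CPM with control peptide and 55.1, 64.2, 58.7 and 62.3 CPM at 1 µM (log2 change 0.60 ± 0.07, adjusted p = 4.84e-08). The groups overlapped for neither gene. Its relative Bnip3l was at 156 to 168 CPM with control peptide and 173 to 184 CPM at 1 µM and was not called (adjusted p = 0.154).

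The oxygen-dependent enzymes of the list were higher as well. Ero1l, the oxidase that drives disulfide bond formation in the endoplasmic reticulum, had the smallest adjusted p of the list, with 61.8, 75.2, 72.0 and 76.9 CPM in the control libraries and 106, 116, 98.2 and 112 CPM at 1 µM (log2 change 0.59 ± 0.059, adjusted p = 3.4e-10). P4ha1, a catalytic subunit of collagen prolyl hydroxylase, was at 101, 89.0, 94.2 and 88.0 CPM with control peptide and 132, 154, 130.4 and 156 CPM at 1 µM (log2 change 0.62 ± 0.067, adjusted p = 6.73e-08). In both genes the lowest 1 µM library lay above the highest control library. The oxygen sensors Egln3 (log2 change 0.51 ± 0.087, adjusted p = 0.000163) and Egln1 (log2 change 0.17 ± 0.041, adjusted p = 0.0116) rose, as did Vegfa, the vascular growth factor (log2 change 0.41 ± 0.10, adjusted p = 0.0309). Adm, Ankrd37 and Ndrg1 had positive changes (0.67, 0.43 and 0.12) with overlapping groups and adjusted p of 0.079, 0.221 and 0.345. Transcripts of the pathway's regulators Hif1a, Epas1, Arnt and Vhl were not called. The log2 change was 0.08 ± 0.046 for Hif1a (adjusted p = 0.411), -0.19 ± 0.096 for Epas1 (adjusted p = 0.337), 0.11 ± 0.055 for Arnt (adjusted p = 0.33) and 0.06 ± 0.05 for Vhl (adjusted p = 0.596). These factors are controlled largely at the protein level, which was not measured.

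**Figure D2:**
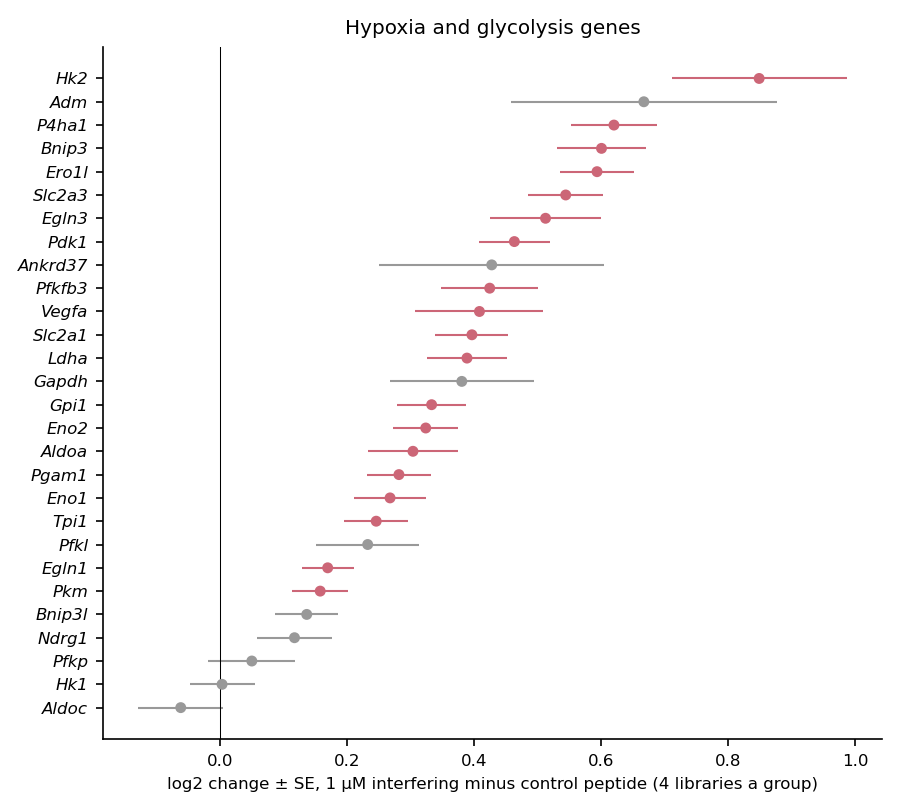
Each point is the log2 change of 1 member of the hypoxia and glycolysis list at 1 µM against the control peptide, with its standard error as the bar. Red points were called and grey points were not. Hk2 lies farthest to the right at 0.85, and Aldoc is the only member left of 0.

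Of the genes outside that list with the same background, 3 were among the 12 largest rises named by rule. The rule took called protein-coding genes only, and passed over scarce transcripts, predicted genes and genes whose groups overlapped. None of the 3 rose beyond 2-fold, whereas 19 called genes on chromosomes 1 to 19 and MT did. P4ha2, another collagen prolyl hydroxylase subunit, was at 46.5, 38.5, 44.3 and 39.9 CPM in the control libraries and 68.9, 82.5, 64.4 and 85.5 CPM at 1 µM (log2 change 0.83 ± 0.095, adjusted p = 7.93e-07). Ppp1r3c, which brings a phosphatase to glycogen, was at 13.8, 15.4, 14.0 and 18.5 CPM with control peptide and 25.3, 28.9, 25.4 and 31.0 CPM at 1 µM (log2 change 0.84 ± 0.11, adjusted p = 5.2e-07). Bhlhe40, a transcriptional repressor of the circadian clock that also responds to low oxygen, was at 32.7, 33.3, 34.8 and 30.4 CPM with control peptide and 48.3, 56.6, 53.7 and 64.3 CPM at 1 µM (log2 change 0.76 ± 0.14, adjusted p = 0.00309). None of the 3 genes had groups that overlapped, which that rule required. The call of Bhlhe40 was lost with the pairs summed (adjusted p = 0.406). Chosen after their values were seen, Plod2 (a collagen lysyl hydroxylase, log2 change 0.67 ± 0.072), Slc16a3 (a lactate exporter, 0.60 ± 0.11), Car12 (a carbonic anhydrase, 0.54 ± 0.12), Ak4 (a mitochondrial adenylate kinase, 0.53 ± 0.092), Kdm3a (an oxygen-dependent histone demethylase, 0.48 ± 0.069) and Gys1 (glycogen synthase, 0.43 ± 0.076) were also called higher, with adjusted p of at most 0.0051. Txnip and Arrdc4, arrestin-like proteins that restrain glucose uptake and whose transcription follows glucose metabolites, moved the other way and were likewise chosen after their values were seen. Txnip was at 104, 125, 104 and 128 CPM in the control libraries and 88.4, 65.1, 86.7 and 57.7 CPM at 1 µM (log2 change -0.63 ± 0.15, adjusted p = 0.0248), and Arrdc4 was at 85.6 to 94.9 CPM with control peptide and 59.7 to 72.5 CPM at 1 µM (log2 change -0.46 ± 0.095, adjusted p = 0.00674). Neither gene's groups overlapped.

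Across the 7 neuron groups, the 1 µM group had the highest mean of several of these genes. Hk2 averaged 75.4 ± 8.88 CPM (SD, n = 4) with control peptide and no DEX, 80.2 ± 5.72 with control peptide and DEX, 144 ± 18 at 1 µM, 100.3 ± 9.18 at 3 µM, 101 ± 22.8 at 10 µM, 84.9 ± 13.0 at 30 µM and 55.9 ± 6.23 at 100 µM. The 10 and 30 µM groups were not tested here. P4ha1 was likewise highest at 1 µM and lowest at 100 µM, with 143 ± 13.8 CPM at 1 µM, 119 ± 2.63 at 3 µM and 67.1 ± 5.03 at 100 µM, the last below its 93.1 ± 6.05 in the control peptide group. Slc2a3 stayed closer to its 1 µM level, at 118 ± 8.29 CPM there and 112 ± 5.96 at 3 µM, a difference that did not pass the test (log2 0.07, adjusted p = 0.55). Txnip was lowest at 3 µM (61.1 ± 5.62 CPM) and at 1 µM (74.5 ± 15.4), and stood at 139 ± 10.8 at 100 µM and 115 ± 12.6 with the control peptide and DEX.

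**Figure D3:**
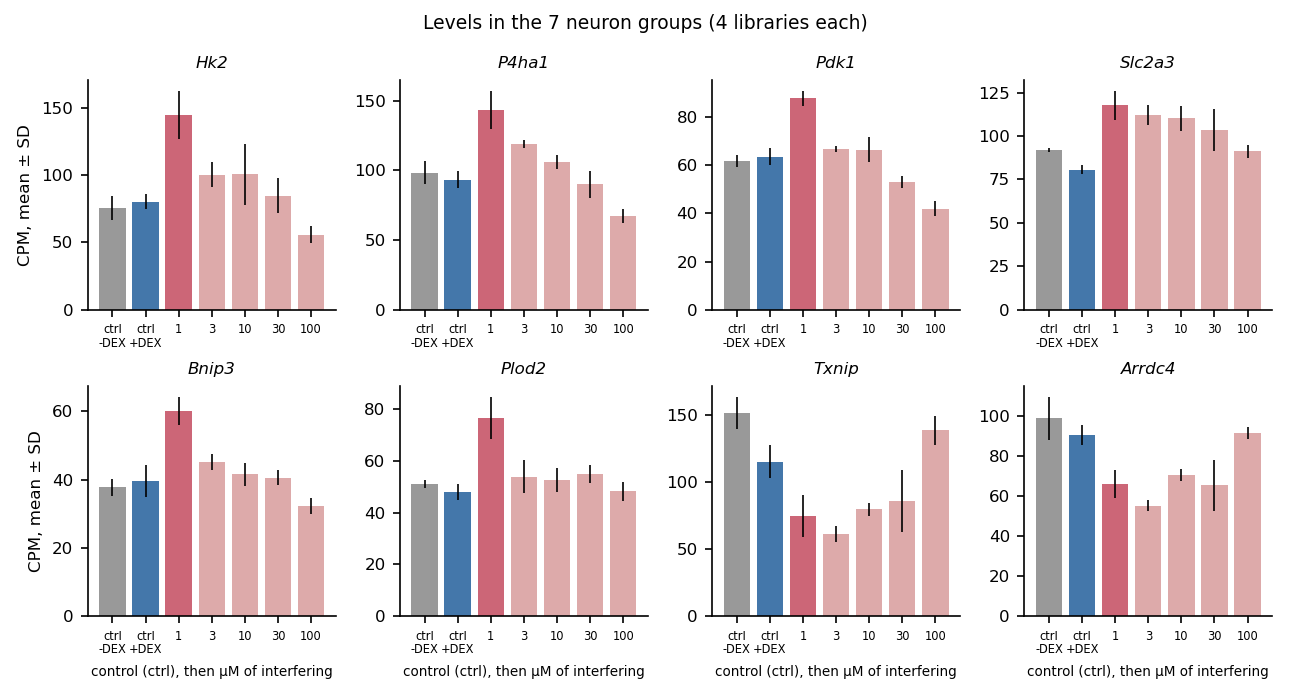
Bars give the mean CPM and error bars the SD over 4 libraries in the 7 neuron groups, for 6 genes of the hypoxia program and for Txnip and Arrdc4. Grey is control peptide (ctrl) without DEX, blue is control peptide with DEX, and red shades are interfering peptide at the µM given below each bar, all with DEX. Hk2 is highest at 1 µM and lowest at 100 µM, while Txnip is lowest at 1 and 3 µM.

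Sterol synthesis and endoplasmic reticulum chaperone genes rose by smaller amounts. Of 21 tested genes of cholesterol synthesis and uptake, 7 rose and 0 fell (median log2 change 0.15), against 1.4% of all genes higher. Hmgcs1, which makes the precursor of mevalonate, was at 552, 579, 603 and 594 CPM in the control libraries and 642, 694, 645 and 655 CPM at 1 µM (log2 change 0.18 ± 0.037, adjusted p = 0.00233), with no overlap. Msmo1 (log2 change 0.30 ± 0.059, adjusted p = 0.00128), Cyp51 (log2 change 0.20 ± 0.041, adjusted p = 0.00135), both demethylating enzymes of the late pathway, and Stard4, a sterol carrier (log2 change 0.29 ± 0.063, adjusted p = 0.00415), rose as well. The sterol count was 4 with libraries 1 and 3 alone, 13 with libraries 2 and 4 alone, 4 without library 2 of the 1 µM group and 0 with the pairs summed. Over all genes, 424 of 18007 rose with libraries 1 and 3 alone and 1103 of 18070 with libraries 2 and 4 alone.

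Of 20 endoplasmic reticulum chaperone and unfolded protein response genes, 6 rose and 0 fell (median 0.14), against 1.4% of all genes higher. They were Hspa5, the main lumenal chaperone (355, 332, 357 and 337 CPM in the control libraries and 402, 444, 396 and 460.0 CPM at 1 µM, log2 change 0.30 ± 0.058, adjusted p = 0.00142), Canx and Calr, the lectin chaperones of glycoproteins (log2 change 0.22 ± 0.045 and 0.21 ± 0.044), Hsp90b1 (0.26 ± 0.053), Pdia6 (0.22 ± 0.049) and Hyou1 (0.18 ± 0.05). Hspa5 was higher in 1 µM libraries 2 and 4 than in 1 and 3, and all 4 were above the control range. No member was called with the pairs summed, 6 with libraries 1 and 3 alone, 10 with libraries 2 and 4 alone, and 4 without control library 4. The fits of either pair alone had 424 of 18007 and 1103 of 18070 genes higher over the whole table. The 27 genes of the amino-acid stress response to ATF4 and the 16 cytosolic heat-shock genes had 0 calls each, with medians of -0.073 and -0.0031.

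Metal-handling genes gave 3 of the 18 members of the oxidant and metal defence list, all higher, against 1.4% of all genes higher. The list's median was 0.041. Tfrc, the transferrin receptor that imports iron, was at 162, 174, 180.3 and 173 CPM in the control libraries and 218, 259, 222 and 239 CPM at 1 µM (log2 change 0.44 ± 0.065, adjusted p = 4.26e-05). The groups did not overlap, and this call held under every alternative. Mt1, a zinc-binding metallothionein, was at 22.8 to 25.2 CPM with control peptide and 35.7 to 40.4 CPM at 1 µM (log2 change 0.65 ± 0.12, adjusted p = 0.00196), and Slc30a1, which exports zinc, was at 24.8 to 27.1 CPM with control peptide and 31.6 to 37.2 CPM at 1 µM (log2 change 0.38 ± 0.075, adjusted p = 0.00094).

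Frmd5 itself and the glucocorticoid genes were close to their control levels. Frmd5 was at 90.4, 83.5, 89.6 and 90.3 CPM in the control libraries and 84.1, 91.6, 91.2 and 84.1 CPM at 1 µM, with overlapping groups (log2 change -0.01 ± 0.048, adjusted p = 0.949). Even if FRMD5 is its target, an interfering peptide need not change that transcript, so this level does not check the labels. Fkbp5, a chaperone that the glucocorticoid receptor induces and that restrains it, was at 97.9, 104, 105 and 103 CPM with control peptide and 96.6, 93.3, 96.7 and 99.2 CPM at 1 µM (log2 change -0.09 ± 0.048, adjusted p = 0.412). Per1, a clock gene, was at 62.9 to 67.5 CPM with control peptide and 69.0 to 79.2 CPM at 1 µM without overlap but did not pass the test (log2 change 0.18 ± 0.075, adjusted p = 0.244), and Hif3a, a hypoxia factor that glucocorticoids raise, was at 25.6 to 29.0 CPM with control peptide and 23.5 to 24.6 CPM at 1 µM (log2 change -0.18 ± 0.085, adjusted p = 0.325). Sgk1 (log2 change -0.10 ± 0.11, adjusted p = 0.73), Klf9 (log2 change -0.03 ± 0.16, adjusted p = 0.962), Errfi1 (log2 change 0.03 ± 0.067, adjusted p = 0.88) and the receptor Nr3c1 (log2 change -0.03 ± 0.098, adjusted p = 0.92) overlapped between groups. The sign was not stable for Frmd5, Sgk1, Klf9, Errfi1 and Nr3c1, each of which changed sign under at least 1 alternative.

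Of 36 tested glucocorticoid-induced genes, 2 rose and 2 fell, with a median of -0.044, against 1.4% of all genes higher and 0.891% lower. The risers were Slc2a1 and Mt1, which the hypoxia and the metal lists also hold. Fbxo32, a ubiquitin ligase subunit of muscle wasting, was at 9.90, 9.65, 11.8 and 8.93 CPM in the control libraries and 6.36, 8.72, 6.95 and 6.99 CPM at 1 µM (log2 change -0.47 ± 0.13, adjusted p = 0.0415). Nfkbia, the inhibitor of NF-kB, was at 16.4, 16.9, 16.4 and 18.5 CPM with control peptide and 11.2, 11.4, 13.1 and 13.9 CPM at 1 µM (log2 change -0.46 ± 0.13, adjusted p = 0.0435). Both fell without overlap. Of 17 alternatives, 10 lost the call of Fbxo32 and 8 that of Nfkbia, the latter without any 1 of the control libraries among them. Ddit4, which glucocorticoids and low oxygen both raise, was at 373, 329, 339 and 329 CPM with control peptide and 449.9, 529.7, 425 and 502 CPM at 1 µM and missed the threshold (log2 change 0.48 ± 0.15, adjusted p = 0.0994), although its groups did not overlap. The 17 corticosteroid receptor, chaperone and coregulator genes and the 23 FERM-domain genes had 0 calls (medians 0.0023 and -0.014), as did the 24 immediate-early transcription factors (median 0.045). At 2641 genes with an unadjusted p below 0.05 in the whole table, the absence of calls in a list does not show that its genes did not move.

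Several transcripts of the mitochondrial genome fell. Of 15 tested, 5 fell and 0 rose (median -0.27), against 0.891% of all genes lower. mt-Nd5, a subunit of complex I, was at 1001, 1334, 1189 and 1254 CPM in the control libraries and 873, 796, 928.6 and 706 CPM at 1 µM (log2 change -0.53 ± 0.12, adjusted p = 0.0125). mt-Nd6 (log2 change -0.65 ± 0.17, adjusted p = 0.0471), mt-Cytb of complex III (log2 change -0.19 ± 0.047, adjusted p = 0.016) and the ribosomal RNAs mt-Rnr1 (log2 change -0.44 ± 0.11, adjusted p = 0.0253) and mt-Rnr2 (log2 change -0.33 ± 0.074, adjusted p = 0.0115) fell too. RNA was taken with poly-T beads, and no label gives the strand setting. The part of either in these falls was not tested. The share of all counts on MT was 1.21% to 1.53% in the control libraries and 1.12% to 1.23% at 1 µM, so the ranges overlapped. The count of falls rested on single libraries: it was 1 without control library 2, 1 without control library 4, 1 without 1 µM library 2, 1 without 1 µM library 4, 9 without control library 1, and 0 with the pairs summed. It was 2 with libraries 1 and 3 alone (median -0.12), 9 with libraries 2 and 4 alone (median -0.36), 3 in a fit of only the 8 libraries and 8 with DESeq2. Over all genes, 273 of 18007 fell with libraries 1 and 3 alone and 664 of 18070 with libraries 2 and 4 alone. Nuclear-encoded respiratory chain genes had 0 calls of 36, with a median of -0.038.

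Markers of brain regions differed between the groups, and for the thalamus they differed within the 1 µM group. Of 25 tested thalamic and diencephalic markers, 3 rose and 0 fell, with a median of 0.61, against 1.4% of all genes higher and 0.891% lower. No member was called with the pairs summed. Lhx9, a transcription factor of the early thalamus, was at 15.4, 14.5, 16.9 and 14.4 CPM in the control libraries and 49.3, 27.8, 47.9 and 21.9 CPM at 1 µM (log2 change 1.27 ± 0.25, adjusted p = 0.0058). Its adjusted p was 0.465 with the pairs summed and 0.124 in a fit of only the 8 libraries. Barhl2, also of diencephalic neurons, was at 5.26, 2.14, 2.82 and 2.11 CPM with control peptide and 6.78, 5.69, 7.84 and 7.27 CPM at 1 µM (log2 change 1.16 ± 0.24, adjusted p = 0.00267), and Lef1, an effector of Wnt signals, was at 8.25 to 11.5 CPM with control peptide and 12 to 14.7 CPM at 1 µM (log2 change 0.45 ± 0.11, adjusted p = 0.0125). Gbx2 and Shox2 of the thalamus followed Tcf7l2. Gbx2 was at 1.80, 1.65, 1.81 and 1.91 CPM in the control libraries and 10.4, 2.25, 9.83 and 1.26 CPM at 1 µM (adjusted p = 0.22), and Shox2 at 0, 0.21, 0.072 and 0.068 CPM with control peptide and 9.17, 0.63, 11.4 and 0.35 CPM at 1 µM (adjusted p = 0.129).

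The summed level of the 25 thalamic markers ran from 366 to 499 CPM in the control libraries and from 430.2 to 777 CPM at 1 µM. With libraries 1 and 3 alone, 18 of the 25 rose and 0 fell (median 1.59), while libraries 2 and 4 alone gave 3 rises and 4 falls (median 0.020). Over all genes, these fits gave 424 rises and 273 falls of 18007, and 1103 rises and 664 falls of 18070. The division into pairs was itself seen in values such as those of Tcf7l2, so these counts describe it and do not test it. If the libraries of a pair share a source, these counts also lack independent samples. With bulk libraries, more cells of a type and more RNA per cell cannot be told apart. The part that the thalamic markers play in the other results was not tested.

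Several inhibitory neuron genes fell. Of 23 GABAergic interneuron markers, 7 fell and 0 rose (median -0.19), against 0.891% of all genes lower. Dlx2, a transcription factor that specifies these neurons, was at 85.3, 109.7, 79.2 and 111 CPM in the control libraries and 68.0, 62.9, 77.5 and 66.3 CPM at 1 µM (log2 change -0.49 ± 0.13, adjusted p = 0.0471), and its control libraries 2 and 4 were the highest. Dlx5 (log2 change -0.40 ± 0.086, adjusted p = 0.0034), Dlx6 (log2 change -0.35 ± 0.096, adjusted p = 0.0378), Dlx1 (log2 change -0.26 ± 0.067, adjusted p = 0.0309), Sp9 (log2 change -0.35 ± 0.094, adjusted p = 0.0333), Maf (log2 change -0.38 ± 0.095, adjusted p = 0.018) and Slc32a1, the vesicular GABA transporter (log2 change -0.35 ± 0.10, adjusted p = 0.046), fell as well. Gad1 and Gad2, which make GABA, had log2 changes of -0.16 ± 0.055 and -0.17 ± 0.062 and were not called. The summed level of the 23 markers was 1631 to 1791 CPM in the control libraries and 1568 to 1607 CPM at 1 µM. The count of falls was 2 with libraries 1 and 3 alone (2 members then rose), 12 with libraries 2 and 4 alone (1 then rose) and 0 with the pairs summed. It was 3 in a fit of only the 8 libraries and 2 with the replicate block. It was 1 without control library 4, 1 without 1 µM library 2, 2 without control library 2 and 2 without 1 µM library 4. Over all genes, falls numbered 273 of 18007 with libraries 1 and 3 alone and 664 of 18070 with libraries 2 and 4 alone.

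Among other neuron types, 2 of 19 striatal markers were called, both lower, against 0.891% of all genes lower. They were the transcription factors Rarb (log2 change -0.81 ± 0.18, adjusted p = 0.00449) and Zfp503 (log2 change -0.44 ± 0.10, adjusted p = 0.00686). Both calls were lost with the pairs summed and with libraries 1 and 3 alone. Of the cortical projection neuron markers none rose. Cux2, a transcription factor of upper layers, fell: it was at 102, 93.4, 96.2 and 93.1 CPM with control peptide and 85.5, 84.6, 81.0 and 78.3 CPM at 1 µM (log2 change -0.22 ± 0.057, adjusted p = 0.0189), with no overlap. Tbr1 (log2 change 0.08 ± 0.047) and Bcl11b (-0.01 ± 0.062) of deep layers were not called. Nefm, a neurofilament of maturing axons, rose (log2 change 0.33 ± 0.065, adjusted p = 0.000988).

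**Figure D4:**
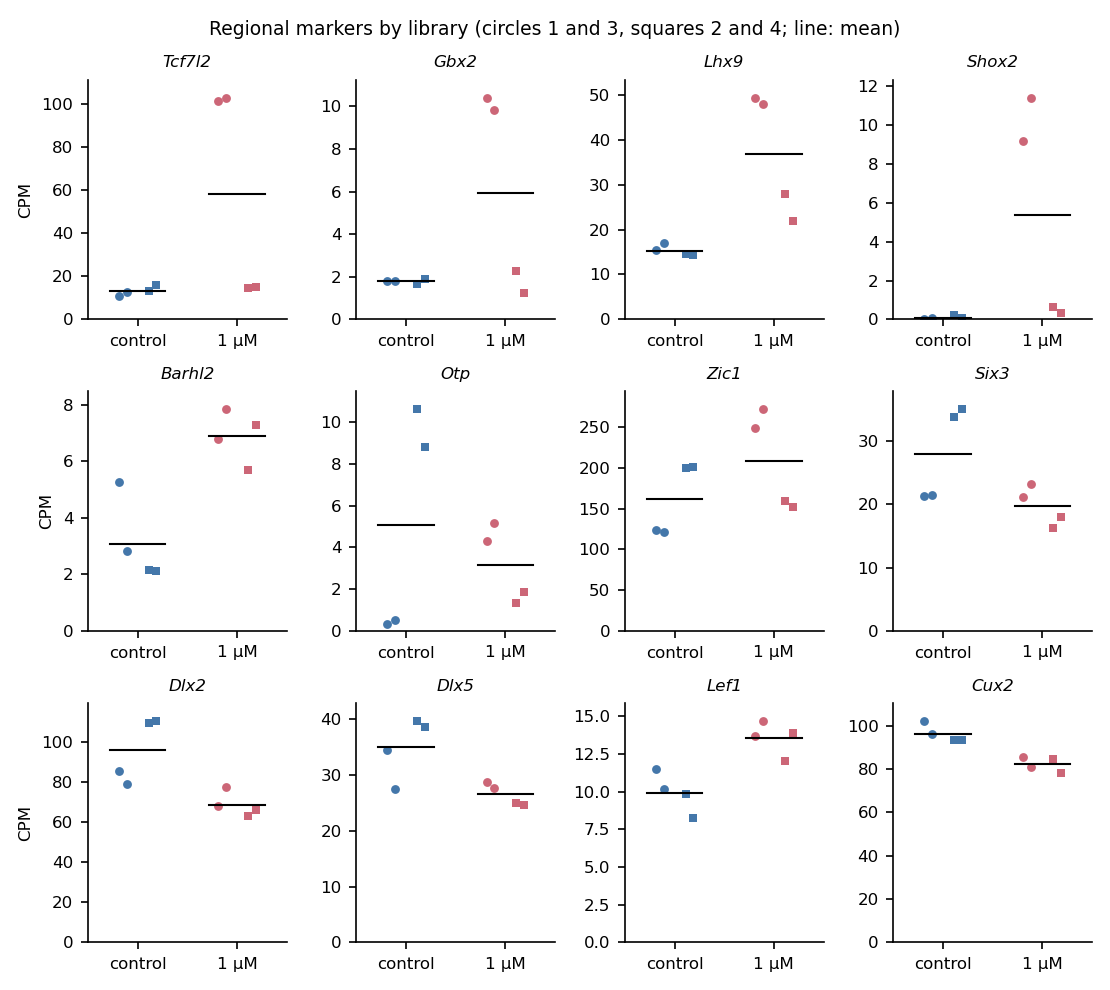
CPM in each library is plotted for 12 regional markers, with control peptide in blue and 1 µM in red, circles for libraries 1 and 3, squares for libraries 2 and 4, and a line at the group mean. Tcf7l2, Gbx2 and Shox2 are high in 1 µM libraries 1 and 3 only, while Cux2 is lower in all 4 of the 1 µM libraries than in any control library.

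Mitotic genes had small positive changes. Of 24, 3 rose and 0 fell, against 1.4% of all genes higher, and all 24 had positive changes (median 0.13). Of 27 S-phase genes only Tyms was called, higher (median 0.035, with 9 negative), and of 38 replication-dependent histone genes 0 were called (median 0.17). Top2a was at 469, 457, 498 and 489 CPM in the control libraries and 537, 549.9, 527 and 533 CPM at 1 µM (log2 change 0.17 ± 0.048, adjusted p = 0.0481), and Tpx2 (log2 change 0.18 ± 0.047, adjusted p = 0.0197) and Bub1b (log2 change 0.20 ± 0.057, adjusted p = 0.0396) were the other called mitotic genes. The mitotic count was 1 with libraries 1 and 3 alone, 10 with libraries 2 and 4 alone, 0 with the pairs summed, and 0 without control library 2, without control library 4 or without 1 µM library 4. It was 1 without 1 µM library 2 and 1 without 1 µM library 3. Over all genes, rises numbered 424 of 18007 with libraries 1 and 3 alone and 1103 of 18070 with libraries 2 and 4 alone. Nes, an intermediate filament of progenitors, rose (log2 change 0.20 ± 0.046, adjusted p = 0.00608), and Slc1a3, a glutamate transporter of radial glia and astrocytes, fell (log2 change -0.20 ± 0.056, adjusted p = 0.0449).

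Several single genes had larger changes than the median of any list. Masp2, a serine protease of the lectin pathway of complement (chr4:148602554-148615499 in mm10, the build of the count table), was at 6.23, 6.0, 5.57 and 6.27 CPM in the control libraries and 1.57, 1.34, 1.79 and 1.26 CPM at 1 µM (log2 change -2.01 ± 0.19, adjusted p = 4.1e-11). The 1 µM group had its lowest mean of the 7 neuron groups, and it was lower at 1 µM than at 100 µM interfering peptide (log2 -1.89, adjusted p = 9.9e-11). Sycp1, a protein of the meiotic synaptonemal complex (chr3:102818499-102936100), was at 0.28, 1.45, 0.87 and 0.20 CPM in the control libraries and 3.15, 3.94, 3.37 and 3.91 CPM at 1 µM (log2 change 2.35 ± 0.38, adjusted p = 0.000218). Here the control group was the one apart: the means were 6.04 CPM with control peptide and no DEX, 0.70 with control peptide and DEX, and 4.05, 3.11, 3.55 and 2.12 at 3, 10, 30 and 100 µM. Both calls held under every alternative.

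Subunits of the ATP-sensitive potassium channel fell together. This channel links the cell's energy state to its membrane potential, with Kcnj11 forming its pore and Abcc8 its sulfonylurea receptor. Abcc8 was at 28.7, 31.6, 29.0 and 32.0 CPM in the control libraries and 20.4, 17.3, 15.2 and 19.6 CPM at 1 µM (log2 change -0.74 ± 0.10, adjusted p = 3.2e-06), and Kcnj11 at 20.9, 18.1, 17.4 and 14.9 CPM with control peptide and 11.4, 10.8, 11.3 and 11.5 CPM at 1 µM (log2 change -0.66 ± 0.11, adjusted p = 0.000153). Both were at their lowest mean of the 7 groups at 1 µM, and both calls held under every alternative. The subunits Kcnj8 (adjusted p = 0.982) and Abcc9 (adjusted p = 0.292) of the related channel were not called. Kcnj11 and Abcc8 are neighbours on chromosome 7. Among the 124 tested genes that start within 2.5 Mb of Abcc8, 6 were called (4.84%), against 2.29% of all genes. Nomo1 (-0.24) and the potassium channel Kcnc1 (-0.37) were also lower, and Gys1 and Ldha were higher. Among the 53 tested genes that start within 2.5 Mb of Sycp1 on chromosome 3, 6 were called (11.3%). Of these, Sycp1, Nhlh2 (log2 change 0.36), Slc16a1 (0.26), Gm42659 (0.67) and the actin-capping subunit Capza1 rose, and Syt6 (-0.50) fell. Capza1 was at 52.8, 61.6, 57.0 and 54.9 CPM in the control libraries and 84.0, 91.5, 86.2 and 97.3 CPM at 1 µM (log2 change 0.67 ± 0.058, adjusted p = 7.9e-12), and its control group had the lowest mean of the 7 groups. Both intervals were chosen after the values were seen, and each count includes the called gene at its centre. Chromosome 3 had the highest share of called genes outside MT, 4.69% of 938, and chromosome 7 as a whole the lowest, 1.63% of 1415.

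Near-identical copies moved in opposite directions. Tpm3, a tropomyosin, was at 224, 249.8, 238 and 239.6 CPM in the control libraries and 137, 131, 138 and 132 CPM at 1 µM (log2 change -0.82 ± 0.043, adjusted p = 6.99e-20), while its related sequence Tpm3-rs7 on chromosome 14 was at 43.3, 44.2, 48.6 and 42.7 CPM with control peptide and 136, 130.1, 135 and 133 CPM at 1 µM (log2 change 1.58 ± 0.051, adjusted p = 2.71e-28). The sum of both was 283 ± 11.2 CPM (SD, n = 4) in the control group and 268 ± 5.59 CPM at 1 µM (exact two-sided permutation test, p = 0.0857, where 0.0286 is the smallest p that 4 against 4 can give). Rpsa, a ribosomal protein gene (log2 change -0.31 ± 0.044, adjusted p = 5.91e-06), and its copy Rpsa-ps10 (log2 change 0.61 ± 0.05, adjusted p = 2.33e-12) likewise moved apart, with sums of 852 ± 40.7 and 838 ± 24.8 CPM (exact permutation p = 0.571). The labels do not say how reads were shared out between such copies, so the separate changes of the 4 genes are uncertain. Nat8f4 (log2 change -1.37 ± 0.24, adjusted p = 0.000219), which has close relatives beside it, is uncertain for the same reason.

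**Figure D5:**
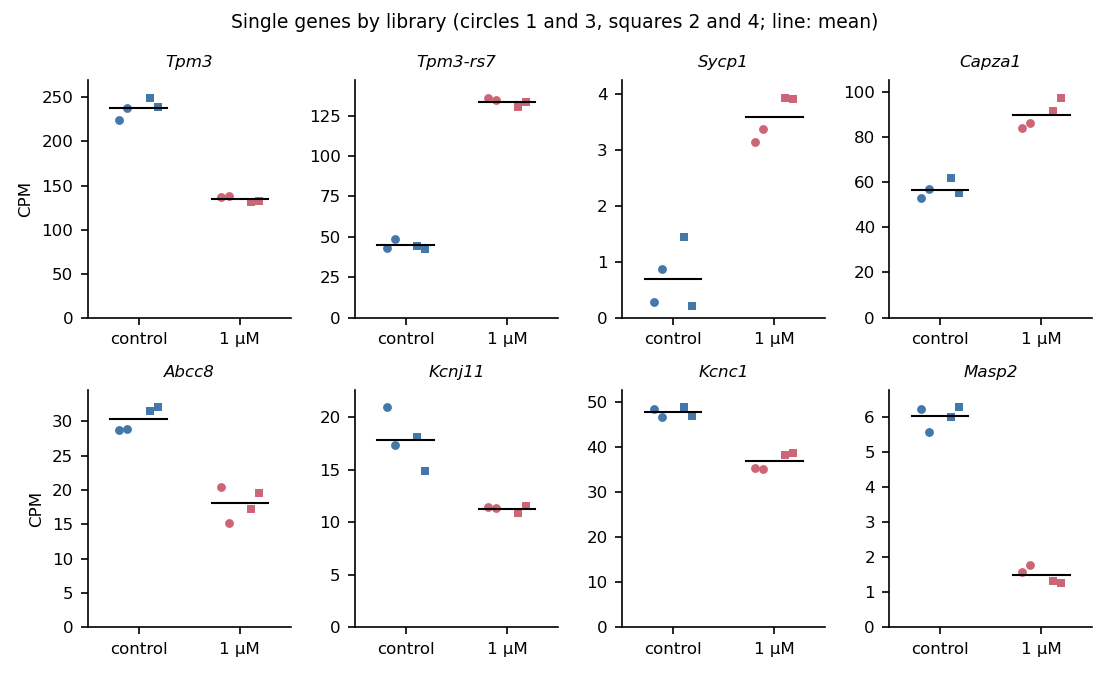
CPM in each library is plotted for 8 single genes, with control peptide in blue and 1 µM in red, circles for libraries 1 and 3, squares for libraries 2 and 4, and a line at the group mean. Tpm3 and Tpm3-rs7 meet at 130 to 138 CPM at 1 µM, and none of the 8 genes has groups that overlap. The rule for the largest rises and falls required this of all but Capza1 and Kcnc1.

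Other large changes were in single genes of several kinds. Fcrls, a microglial receptor-like gene of the mouse, was at 6.30, 8.27, 6.88 and 6.82 CPM in the control libraries and 3.42, 4.08, 1.51 and 4.61 CPM at 1 µM (log2 change -1.05 ± 0.19, adjusted p = 0.000279). The 15 microglial markers had 0 calls, with summed levels of 56.9 to 66.0 CPM in the control libraries and 59.5 to 64.5 CPM at 1 µM. Emcn, an endothelial sialomucin, fell (log2 change -0.97 ± 0.26, adjusted p = 0.0298), and of 15 vascular and meningeal markers only Col1a1, a fibrillar collagen at 1.59 to 2.73 CPM with control peptide and 3.03 to 4.29 CPM at 1 µM, was called, and it rose (log2 change 0.83 ± 0.24, adjusted p = 0.0449). The summed level of those markers was 170.5 to 195 CPM in the control libraries and 165 to 179 CPM at 1 µM. Other falls were Tgfbi, a matrix protein (log2 change -0.86 ± 0.25, adjusted p = 0.048), the kinase Prkch (log2 change -0.82 ± 0.20, adjusted p = 0.0145), the growth factor receptor Egfr (log2 change -0.81 ± 0.20, adjusted p = 0.0247) and Dtd1, a deacylase that clears misloaded transfer RNA (log2 change -0.66 ± 0.13, adjusted p = 0.00103). Other rises were Adamts19, a secreted protease (log2 change 1.07 ± 0.24, adjusted p = 0.00474) and Aldh4a1, an enzyme of proline breakdown (log2 change 0.73 ± 0.13, adjusted p = 0.000173). Of the 17 alternatives, 8 lost the call of Emcn, 10 that of Col1a1 and 10 that of Tgfbi. The call of Egfr was lost under 6, that of Prkch under 4 and that of Adamts19 under 2. Those of Fcrls, Dtd1 and Aldh4a1 held under every alternative. Zic2, a forebrain transcription factor, rose too: it was at 27.6, 41.7, 27.5 and 44.7 CPM with control peptide and 68.1, 47.9, 67.0 and 46.3 CPM at 1 µM (log2 change 0.70 ± 0.16, adjusted p = 0.0229). Libraries 1 and 3 were the lower ones in the control group and the higher ones at 1 µM. Its log2 change was 1.30 with libraries 1 and 3 alone and 0.12 with libraries 2 and 4 alone, and 7 of the 17 alternatives lost the call, leaving out control library 1 or 3 or 1 µM library 1 or 3 among them.

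Smaller calls completed the lists. The basement membrane collagens Col4a2 (log2 change -0.28 ± 0.056, adjusted p = 0.00138) and Col4a1 (log2 change -0.22 ± 0.051, adjusted p = 0.00964) fell and the proteoglycan Vcan rose (log2 change 0.18 ± 0.049, adjusted p = 0.0398). Tiparp, a target of the aryl hydrocarbon receptor (log2 change 0.32 ± 0.068, adjusted p = 0.00286), and Dusp4, a MAP kinase phosphatase (log2 change 0.22 ± 0.051, adjusted p = 0.00718), rose among 26 activity-regulated effector genes, of which 0 fell. Over all genes, 1.4% were higher and 0.891% lower. Hey1, a Notch target (log2 change 0.38 ± 0.078, adjusted p = 0.00242), Skil, a repressor of TGF-beta signalling (log2 change 0.27 ± 0.058, adjusted p = 0.00369), Nhlh1, of newborn neurons (log2 change 0.25 ± 0.066, adjusted p = 0.0247), Tyms, of thymidylate synthesis (log2 change 0.27 ± 0.07, adjusted p = 0.0233), and Clock (log2 change 0.21 ± 0.057, adjusted p = 0.0375) rose as well. Ifit2, an interferon-induced gene, fell (log2 change -0.47 ± 0.12, adjusted p = 0.0189), as did Stag3, a meiotic cohesin (log2 change -0.48 ± 0.14, adjusted p = 0.0447). Of the 17 alternatives, 10 lost the call of Stag3, 9 that of Clock, 6 that of Ifit2 and 5 that of Col4a1. The calls of Vcan, Nhlh1 and Tyms were each lost under 7, and that of Dusp4 under 3. Those of Col4a2 and Skil were each lost under 2, and those of Hey1 and Tiparp under 1.

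The 1 µM libraries were also set against 3 other groups, and since these comparisons share them, the values stand side by side without a test between them. Against control peptide without DEX, 5.61% of all genes were higher at 1 µM and 4.78% lower, and 23 of the 28 hypoxia and glycolysis members were higher and 0 lower (median 0.39). Against 3 µM interfering peptide the shares were 2.66% higher and 3.31% lower, with 7 members higher and 1 lower. Against 100 µM interfering peptide they were 10.2% and 10.1%, with 24 members higher and 2 lower (median 0.51). Hk2 was higher at 1 µM in all 3, by a log2 change of 0.94, 0.53 and 1.37 (adjusted p = 0.000107, 0.0234 and 2.94e-07).

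Sterol genes did not follow that pattern. Against control peptide without DEX, 12 of the 21 were higher at 1 µM and 0 lower, beside 5.61% and 4.78% of all genes. Against 100 µM interfering peptide 0 were higher and 14 lower, beside 10.2% and 10.1% of all genes, with Hmgcs1 at a log2 difference of -0.50 (adjusted p = 1.16e-14). Immediate-early transcription factors, without a call against the control peptide, had 12 of 24 lower at 1 µM than at 3 µM and 18 lower than at 100 µM, with 0 higher in either. Of all genes, 3.31% were lower at 1 µM than at 3 µM and 10.1% lower than at 100 µM. Glucocorticoid-induced genes had 6 higher and 2 lower of 36 against control peptide without DEX, beside 5.61% and 4.78% of all genes. This contrast includes DEX itself: Hif3a differed by 0.62 (adjusted p = 3.27e-06) and Per1 by 0.48 (adjusted p = 4.63e-05). Fkbp5 differed there by -0.06 (adjusted p = 0.424) and was higher at 1 µM than at 100 µM interfering peptide by 0.25 (adjusted p = 0.000193).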

How the data were processed

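The authors deposited raw counts of reads for each of 54532 genes. Per the submitters' processing notes, reads were aligned with HISAT2 2.2.1 to mm10. No label names the counter, annotation or strand setting, so overlapping and antisense genes cannot be separated. Messenger RNA was taken with poly-T beads and copied with random hexamers, per the labels' protocols. Reads carry no molecular identifiers, and the floor of 3 counts covers counting error only.

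Counts were tested with edgeR 4.0.16 (R 4.3.3): filterByExpr, TMM scaling and a robust quasi-likelihood fit of all 28 neuron libraries in 7 groups, with a group term and no replicate block. Log2 changes are given ± standard error, with 4 libraries per group. The p-values were adjusted by Benjamini-Hochberg over 17837 genes and called below 0.05 (common biological coefficient of variation 0.0661). One gene ID was used per symbol. The steps were tested on simulated counts.

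Members and 44 gene lists were chosen with earlier results of these data known. Genes named by rule are Frmd5, 7 glucocorticoid genes, Sycp1, the 12 largest rises and falls among called protein-coding genes (mean of at least 2 CPM, groups apart, predicted genes skipped), and up to 4 called members per list. Sums of near-identical copies were compared by exact permutation. No library was left out of the main result. Alternatives were DESeq2 1.42.0, RLE factors, no low-count filter, only 8 libraries, only chromosomes 1 to 19 and MT, a replicate block, libraries summed in pairs or taken as pairs, and each library left out. Results for some genes of the lists are not reported here.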

Additional observations from a re-analysis of the deposited data

Results flagged for a closer look

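Over 168 groups of 4 libraries (84 named genes in 2 groups), 2 libraries stood far from the other 3 of their group, where chance flags about 1 group in 20. Frmd5 was at 83.5 CPM in control library 2, against 89.6 to 90.4 in the other control libraries. Clock was at 82.4 CPM in library 1 of the 1 µM group, against 95.6 to 97.8 in the others.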

How the results depend on the processing

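Counts of called genes moved most with the libraries used. With libraries summed in pairs (1 with 3, 2 with 4) the main comparison gave 89 calls in place of 409, that with control peptide without DEX 427 in place of 1853, that with 3 µM 152 in place of 1066 and that with 100 µM 1572 in place of 3629; such a fit has fewer samples. Libraries 1 and 3 alone gave 697 calls in the main comparison. Libraries 2 and 4 alone gave 1767 there and 3472 against 3 µM, where a fit of only the 8 libraries gave 666; the cause was not tested. Leaving out each library gave 228 to 428, 1269 to 1523, 586 to 1293 and 2911 to 3275 calls. Against 3 µM the low counts were 586 without 3 µM library 4, 617 without 1 µM library 2 and 624 without 3 µM library 2. DESeq2 (564), RLE factors (409), no filter (543) and chromosomes 1 to 19 and MT alone (385) stayed within 1.5 times. Like-numbered libraries of the 2 groups did not deviate together (correlations 0.24, -0.21, -0.27 and -0.19 over 5000 genes), so the numbers do not pair them; the replicate block gave 375 calls, and 2 rather than 7 interneuron markers. Of 76 called named genes, 21 stayed called under every alternative and 55 were lost under at least 1, all 55 with the pairs summed. No called gene changed sign. The uncalled genes that did were Frmd5 (0.016 with libraries 2 and 4 alone, -0.038 to 0.0080 with a library left out), Sgk1 (0.105 with libraries 1 and 3 alone), Nr3c1 (-0.086 to 0.051 with a library left out), Klf9 (0.016 with libraries 1 and 3 alone, -0.097 to 0.033 with a library left out) and Errfi1 (-0.0036 to 0.054 with a library left out). Genes with under about 2 CPM rest on few reads.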
